A study of Homo sapiens with 25 samples.

Results

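The midhigh and midlow gates were the inner 2 of 4 gates set on dye accumulation in hiF-T cells, and the question was which transcripts differed between cells on either side of the middle of the dye range. The comparison took 8 of the 25 libraries of the series, namely 4 labelled midhigh accumulation dye and 4 labelled midlow accumulation dye, chosen by their labels alone. Each group carried biological replicates numbered 1 to 4, and the replicate number entered the fit as a block. The other sort libraries, 4 each of high dye, low dye and ungated cells, shared the fit but not the contrast. hiF-T cells are a single human line of fibroblast-like cells from BJ skin fibroblasts with inducible expression of hTERT, the catalytic subunit of telomerase. All groups had the genotype WT and no drug. Since 1 line was used, the replicates are not separate donors. The series calls this a sort on proliferation status, and the labels name neither the dye nor the dye level that goes with slow division.

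A dye that is loaded into cells and not renewed is diluted when a cell divides, so such dyes are used to sort cells by how often they have divided. Commitment to the cell cycle releases E2F transcription factors from the RB family, and they switch on the genes of origin licensing and DNA synthesis. Genes of G2 and mitosis follow, through MYB-MuvB and FOXM1. Arrest works in the other direction: p53 raises CDKN1A (p21), an inhibitor of cyclin-dependent kinases, and the DREAM complex then holds both gene groups down. In fibroblasts a lasting arrest is known to go with matrix production, secreted factors and lysosomal genes.

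The midhigh libraries held 15806949 to 16542397 gene counts and the midlow libraries 15015039 to 20030093. Levels are given as CPM, counts per 1000000 gene counts after TMM scaling, and CPM values cannot be compared between genes because length is not taken into account. A gene with no count could lie at up to 3 counts, or 0.15 to 0.2 CPM over these libraries, for counting error only. The shares of mitochondrial counts overlapped, at 2.47% to 2.75% in midhigh and 2.42% to 2.87% in midlow libraries. As a check of the label, 7 of 10 fibroblast markers reached 1 CPM in all 8 libraries, THY1 stayed under 1 CPM and PDPN was at 0. The summed fibroblast markers were 8755 to 10966 CPM in midhigh and 7195 to 9471 CPM in midlow libraries, and 3 of the 9 tested (COL1A1, COL1A2 and COL3A1) rose, so this sum moved with the matrix genes described below. Markers of blood cells summed to 0.118 to 1.19 CPM in midhigh and 0.098 to 0.427 CPM in midlow libraries, with LYZ, HBB and CD3E at 0, and melanocyte and Schwann cell markers to 1.02 to 2.29 CPM in midhigh and 0.441 to 1.64 CPM in midlow libraries, with SOX10 and S100B at 0. Epithelial markers summed to 152 to 297 CPM in midhigh and 146 to 293 CPM in midlow libraries, mainly KRT8 and KRT18. Endothelial markers summed to 78 to 101 CPM in midhigh and 81.9 to 101 CPM in midlow libraries, nearly all TEK. Both sums overlapped between the gates, and no member of either was called. Of 6 pluripotency markers, POU5F1 and SOX2 reached 1 CPM in all 8 libraries. Their set summed to 4.82 to 7.47 CPM in midhigh and 3.23 to 8.92 CPM in midlow libraries, with 0 called.

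Of 14592 genes tested, 1574 were called between midhigh and midlow dye at a Benjamini-Hochberg adjusted p under 0.05 in edgeR's quasi-likelihood test with the replicate block, which is 10.8% of the genes. In midhigh cells 805 genes rose (5.52%) and 769 fell (5.27%). At least 2-fold differences were found for 111 genes that rose and 3 that fell, and the median log2 fold change was 0.43 among the rises and -0.31 among the falls, against 0.01 over all genes tested. The direction was the same in all 4 same-numbered pairs for 782 of the rises and 760 of the falls. These counts rest on the block: the same model without the replicate number called 0 genes (0%), with 1891 at an unadjusted p under 0.05 and a smallest adjusted p of 0.16. All 1574 genes had the same sign in that fit, and 1222 of them had an unadjusted p under 0.05. The common biological coefficient of variation was 0.077 with the block and 0.162 without it. No member of the 26 gene lists described below was called without the block. DESeq2's Wald test with the block called 1663 genes, of which 1470 were among the 1574.

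Libraries of the same number had much in common. Residuals of midhigh and midlow libraries with the same number, after group means were removed, correlated across genes at 0.454 to 0.562 in the 4 pairs. The replicate number stands for whatever the numbered samples shared, and the labels do not say what that was. Many genes had overlapping groups and yet a steady difference within pairs. CPM ranges of the gates did not overlap for 690 of the called genes (265 that rose and 425 that fell) and for 1195 of all genes tested, or 8.19%.

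PAPPA2 (ENSG00000116183, chr1:176463171-176845605, GRCh38), a protease that cuts IGF binding proteins, had the largest rise among the genes named here and shows this most plainly. It was at 26.5, 7.53, 6.34 and 1.52 CPM in midhigh replicates 1 to 4, against 6.44, 1.37, 1.43 and 0.244 CPM in midlow replicates 1 to 4. Midhigh replicate 4 lay near the level of midlow replicates 2 and 3, so the groups overlapped across a wide range of levels. The difference within pairs stayed between 2.02 and 2.36 on the log2 scale. Midlow replicate 4 was near its floor of 3 counts (0.181 CPM), and the prior count of 2 in the pair differences shrinks the value of that pair. The log2 fold change was 2.23 (SE 0.26, adjusted p = 0.00015 in edgeR). MCM10, which helps start replication forks, had the other pattern. It was at 27.1, 37.9, 23.6 and 38.1 CPM in midhigh and 50.03, 50.1, 52.9 and 50.6 CPM in midlow libraries, with no overlap.

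**Figure D1:**
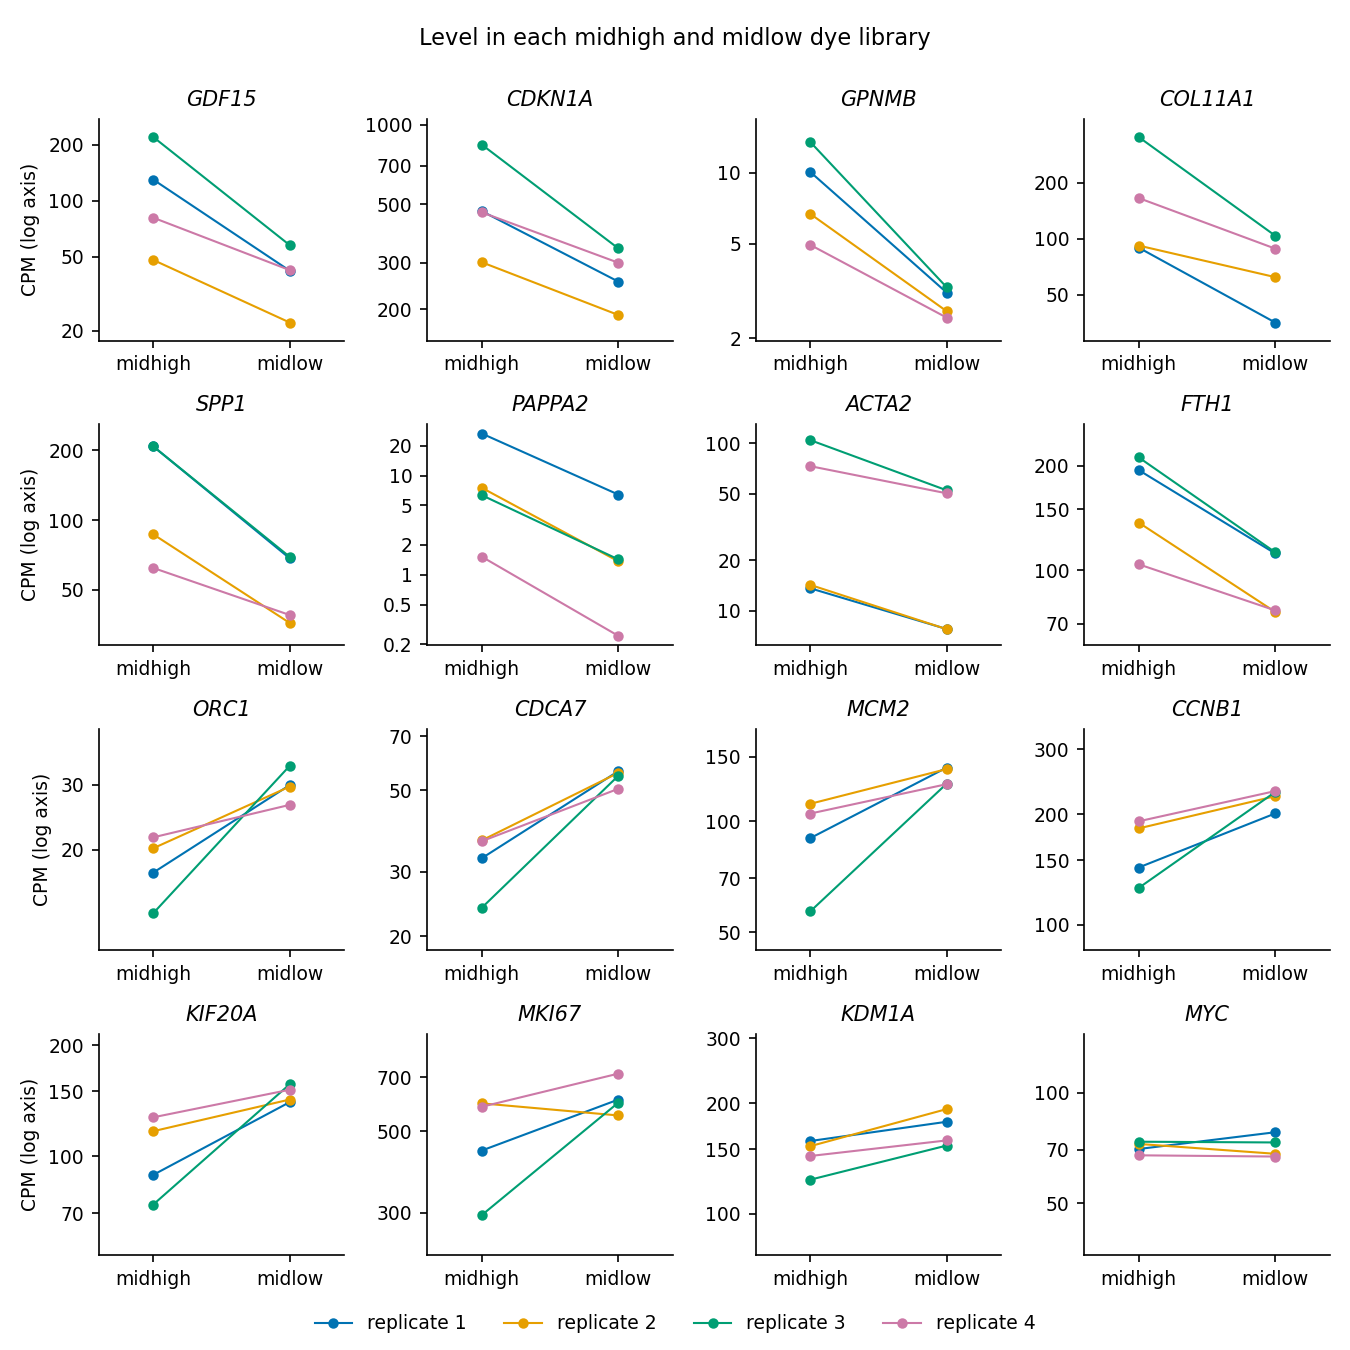
CPM on a log axis in each midhigh (left) and midlow (right) dye library for 16 genes, with a line and a colour for each replicate number. Lines for PAPPA2, SPP1 and ACTA2 start at very different levels and run nearly parallel, while those for ORC1, CDCA7 and MCM2 end close together in midlow cells and reach their lowest point in midhigh replicate 3.

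Genes of origin licensing and DNA replication fell most broadly. Of 58 tested, 48 fell in midhigh cells, 0 rose, and the 10 not called also had negative log2 fold changes. The list median was -0.52, and the gates did not overlap for 37 members. CDCA7 (ENSG00000144354, chr2:173354820-173368997), an E2F and MYC target that works with the HELLS remodeller, was at 32.6, 36.5, 23.9 and 36.3 CPM in midhigh libraries, against 56.2, 55.7, 54.6 and 50.4 CPM in midlow libraries. Every midhigh library was below every midlow library, and the log2 fold change was -0.76 (SE 0.14, adjusted p = 0.0035 in edgeR). ORC1 (ENSG00000085840, chr1:52372829-52404459), the largest subunit of the origin recognition complex, was at 17.3, 20.2, 13.4 and 21.6 CPM in midhigh and 29.97, 29.7, 33.8 and 26.5 CPM in midlow libraries (log2 fold change -0.74, SE 0.14, adjusted p = 0.0039). MCM2, a subunit of the replicative helicase, had 90.0, 112, 56.9 and 105 CPM in midhigh and 140, 139, 127 and 126 CPM in midlow libraries, again without overlap (log2 fold change -0.59, SE 0.15, adjusted p = 0.016). POLE2, a subunit of DNA polymerase epsilon, averaged 10.1 ± 3.4 CPM in midhigh and 16.6 ± 1.9 CPM in midlow cells (SD, n = 4 each), 1.68-fold lower. The replicative helicase subunits MCM3 to MCM7, GINS1, GINS2, GINS3 and CDC45 fell by 0.51 to 0.68 on the log2 scale, the clamp PCNA by 0.44 and the nucleotide enzymes RRM2 and TYMS by 0.57 and 0.47. CDT1 (-0.43) and the histone chaperone subunit CHAF1B (-0.48) did not pass the test.

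The pair differences were unequal. Replicate 3 had the largest median over the list, -0.98, against -0.52, -0.28 and -0.32 in replicates 1, 2 and 4. The count of 48 was 15 without midhigh replicate 3, 18 without midlow replicate 3, 22 without midlow replicate 1, 29 without midhigh replicate 4 and 8 without all libraries of replicate 1. Each of the 58 genes was also lower in high than in low dye cells by the same test, where 37.2% of all genes were called, with a list median of -0.90.

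Promoter windows of 3 replication genes are shown because their genes fell in every pair and the windows hold E2F-type motifs. The windows are RefSeq sequence of build GRCh38.p14, from 250 bases before to 50 bases after each gene's start, written 5′ to 3′ on the gene's strand, with the motif in capitals. They lie at chr2:173354622-173354921 (plus strand) for CDCA7, chr3:127598161-127598460 (plus strand) for MCM2 and chr14:49688165-49688464 (minus strand) for POLE2.
CDCA7: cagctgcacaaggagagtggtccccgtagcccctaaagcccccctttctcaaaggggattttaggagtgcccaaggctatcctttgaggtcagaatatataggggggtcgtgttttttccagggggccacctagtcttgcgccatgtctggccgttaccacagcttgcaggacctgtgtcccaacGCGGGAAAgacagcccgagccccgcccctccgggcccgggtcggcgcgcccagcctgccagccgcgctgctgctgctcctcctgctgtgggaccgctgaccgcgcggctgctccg
MCM2: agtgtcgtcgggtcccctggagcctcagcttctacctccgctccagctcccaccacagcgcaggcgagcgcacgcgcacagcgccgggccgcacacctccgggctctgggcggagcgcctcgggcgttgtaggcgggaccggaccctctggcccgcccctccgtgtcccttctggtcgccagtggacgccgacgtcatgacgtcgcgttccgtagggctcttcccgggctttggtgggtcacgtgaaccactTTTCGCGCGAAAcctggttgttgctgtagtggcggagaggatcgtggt
POLE2: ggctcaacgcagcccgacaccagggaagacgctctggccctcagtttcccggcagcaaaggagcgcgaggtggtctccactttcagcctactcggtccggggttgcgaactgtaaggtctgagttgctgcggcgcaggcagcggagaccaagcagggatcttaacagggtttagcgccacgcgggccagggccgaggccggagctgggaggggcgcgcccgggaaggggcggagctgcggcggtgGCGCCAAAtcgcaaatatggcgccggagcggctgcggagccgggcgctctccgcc
The search read both strands for TTTGGCGC, TTTCCCGC, TTTGGCGG and TTTCGCGC. The CDCA7 and POLE2 windows each hold 1 match, on the opposite strand, and the 2 matches in MCM2 overlap each other. Of the 58 replication genes 49 had a window in the table, and 29 of these (59.2%) held at least 1 match, against 3.43% of all 27305 windows. Among called members with a window, 25 of 40 held a match, and the ORC1 window held none. The shares describe the list and not the difference between the gates. A match is a run of letters and not a measured binding site.

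Genes of G2 and mitosis also fell, with smaller and less certain differences. Of 68 tested, 28 fell, 0 rose, and all 68 log2 fold changes were negative, with a median of -0.41. The gates did not overlap for 30 members. KIF20A, a kinesin of the central spindle, was at 88.9, 117, 73.8 and 127 CPM in midhigh and 140, 142, 157 and 151 CPM in midlow libraries (log2 fold change -0.57, SE 0.17, adjusted p = 0.034 in edgeR). MAD2L1, a spindle checkpoint protein, had 67.7, 78.4, 49.8 and 83.9 CPM in midhigh and 100, 96.2, 98.7 and 110 CPM in midlow libraries. The highest midhigh library stayed below the lowest midlow library for both genes. CCNB1, the mitotic cyclin B1, averaged 161 ± 31 CPM in midhigh and 221 ± 14 CPM in midlow cells (SD, n = 4 each), with a log2 fold change of -0.48 (adjusted p = 0.03). The condensin subunits SMC2, SMC4, NCAPG, NCAPG2, NCAPH and NCAPD2 fell by 0.41 to 0.51 on the log2 scale.

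MKI67, the proliferation marker Ki-67, was not called. It was at 443, 595, 296 and 583 CPM in midhigh and 610, 552, 598 and 717 CPM in midlow libraries, higher in midhigh in pair 2 and lower in the other 3 pairs (log2 fold change -0.41, adjusted p = 0.086 in edgeR). TOP2A, the topoisomerase that untangles chromosomes, differed by -0.23 with an adjusted p of 0.22 and overlapping gates. Pair 3 again had the largest median over the mitosis list, -0.85, against -0.35, -0.19 and -0.28 in pairs 1, 2 and 4. The count of 28 depended strongly on single libraries: it was 1 without midhigh replicate 3, 1 without midlow replicate 3, 5 without midlow replicate 1, 9 without midhigh replicate 4, 17 without midhigh replicate 1, 0 without all libraries of replicate 1, 9 without those of replicate 3 and 13 without those of replicate 4. It was 59 when only the 8 inner libraries were fitted and 63 without a filter on low counts.

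The window of MAD2L1 is shown as an example of the cell cycle homology region (CHR) and CCAAT motifs known from mitotic promoters. It lies at chr4:120066799-120067098 (minus strand, GRCh38.p14, RefSeq), with both motifs in capitals.
MAD2L1: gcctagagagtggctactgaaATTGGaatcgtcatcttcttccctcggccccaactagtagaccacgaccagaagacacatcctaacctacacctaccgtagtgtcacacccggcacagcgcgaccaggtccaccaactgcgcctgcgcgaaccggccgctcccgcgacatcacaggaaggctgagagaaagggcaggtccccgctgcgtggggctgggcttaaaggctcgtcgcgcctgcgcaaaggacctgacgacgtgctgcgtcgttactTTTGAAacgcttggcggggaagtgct
With TTTGAA and TTCGAA as CHR letters, read on both strands, 42 of 57 mitosis windows (73.7%) held a match, against 16.6% of all windows. CCAAT was in 41 of 57 (71.9%), against 35.7% of all windows. Among called members with a window, 18 of 25 held CHR letters and 18 of 25 held CCAAT. The windows of KIF20A and CCNB1 held CCAAT but no CHR letters. These shares describe the list and not the difference between the gates.

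Regulators of the step from G1 to S phase also fell. Among 25 cyclins, CDKs, E2F and RB family genes, 12 fell and 0 rose, with a median of -0.27. E2F2 was at 3.30, 4.71, 3.02 and 4.96 CPM in midhigh and 5.80, 5.34, 7.86 and 8.36 CPM in midlow libraries (log2 fold change -0.77, SE 0.24, adjusted p = 0.045 in edgeR). CDC25A, the phosphatase that activates CDK2, fell by 0.57, E2F1 by 0.54 and SKP2, which targets p27 for destruction, by 0.50 on the log2 scale. RB1 itself fell by 0.24. CCND1, cyclin D1, was not called (0.15, adjusted p = 0.16). The count of 12 was 5 without midhigh replicate 1, 2 without midhigh replicate 3, 5 without midhigh replicate 4, 2 without midlow replicate 1 and 1 without midlow replicate 3. It was 1, 4 and 2 without all of replicate 1, 3 or 4.

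CDKN1A (ENSG00000124762, chr6:36676460-36687339) was the only 1 of 8 CDK inhibitor genes that rose. It had 471, 302, 841 and 466 CPM in midhigh and 255, 190, 340 and 300 CPM in midlow libraries. Each midhigh library was above the midlow library of its number, with midhigh replicate 2 inside the midlow range. The log2 fold change was 0.88 (SE 0.15, adjusted p = 0.0019 in edgeR). CDKN3, a phosphatase of CDK2 that proliferating cells are known to express, fell (-0.62, adjusted p = 0.017). CDKN2A (0.22), CDKN2B (0.42), CDKN1B (-0.09) and CDKN1C (0.27) did not pass the test.

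Targets of p53 rose. Of 38 tested, 16 rose, 0 fell, and the list median was 0.24. GDF15 (ENSG00000130513, chr19:18374731-18389176), a secreted stress factor, was at 130, 48.0, 220 and 80.9 CPM in midhigh and 42.0, 22.1, 57.6 and 42.3 CPM in midlow libraries. It was 2.72-fold higher (log2 fold change 1.44, SE 0.22, adjusted p = 0.0011 in edgeR), with midhigh replicate 2 below the highest midlow library. BTG2, an antiproliferative gene, had 5.90, 3.18, 13.5 and 6.99 CPM in midhigh and 2.27, 2.11, 3.35 and 2.68 CPM in midlow libraries (log2 fold change 1.43, SE 0.25, adjusted p = 0.0027). SPATA18, which acts in mitochondrial quality control, was at 13.3, 10.8, 16.4 and 10.3 CPM in midhigh and 7.97, 6.37, 6.22 and 6.41 CPM in midlow libraries, without overlap. MDM2, the ligase that degrades p53, rose by 0.47, the death receptor FAS by 0.53 and the p53 feedback gene TP53INP1 by 0.74 on the log2 scale. The apoptosis genes BBC3 (0.48) and PMAIP1 (0.06) were not called. Pair medians were 0.30, 0.14, 0.51 and 0.15 in replicates 1 to 4. The count of 16 was 8 without midhigh replicate 3, 8 without midlow replicate 1, 8 without midlow replicate 3, 7 without all of replicate 1 and 10 without all of replicate 3.

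**Figure D2:**
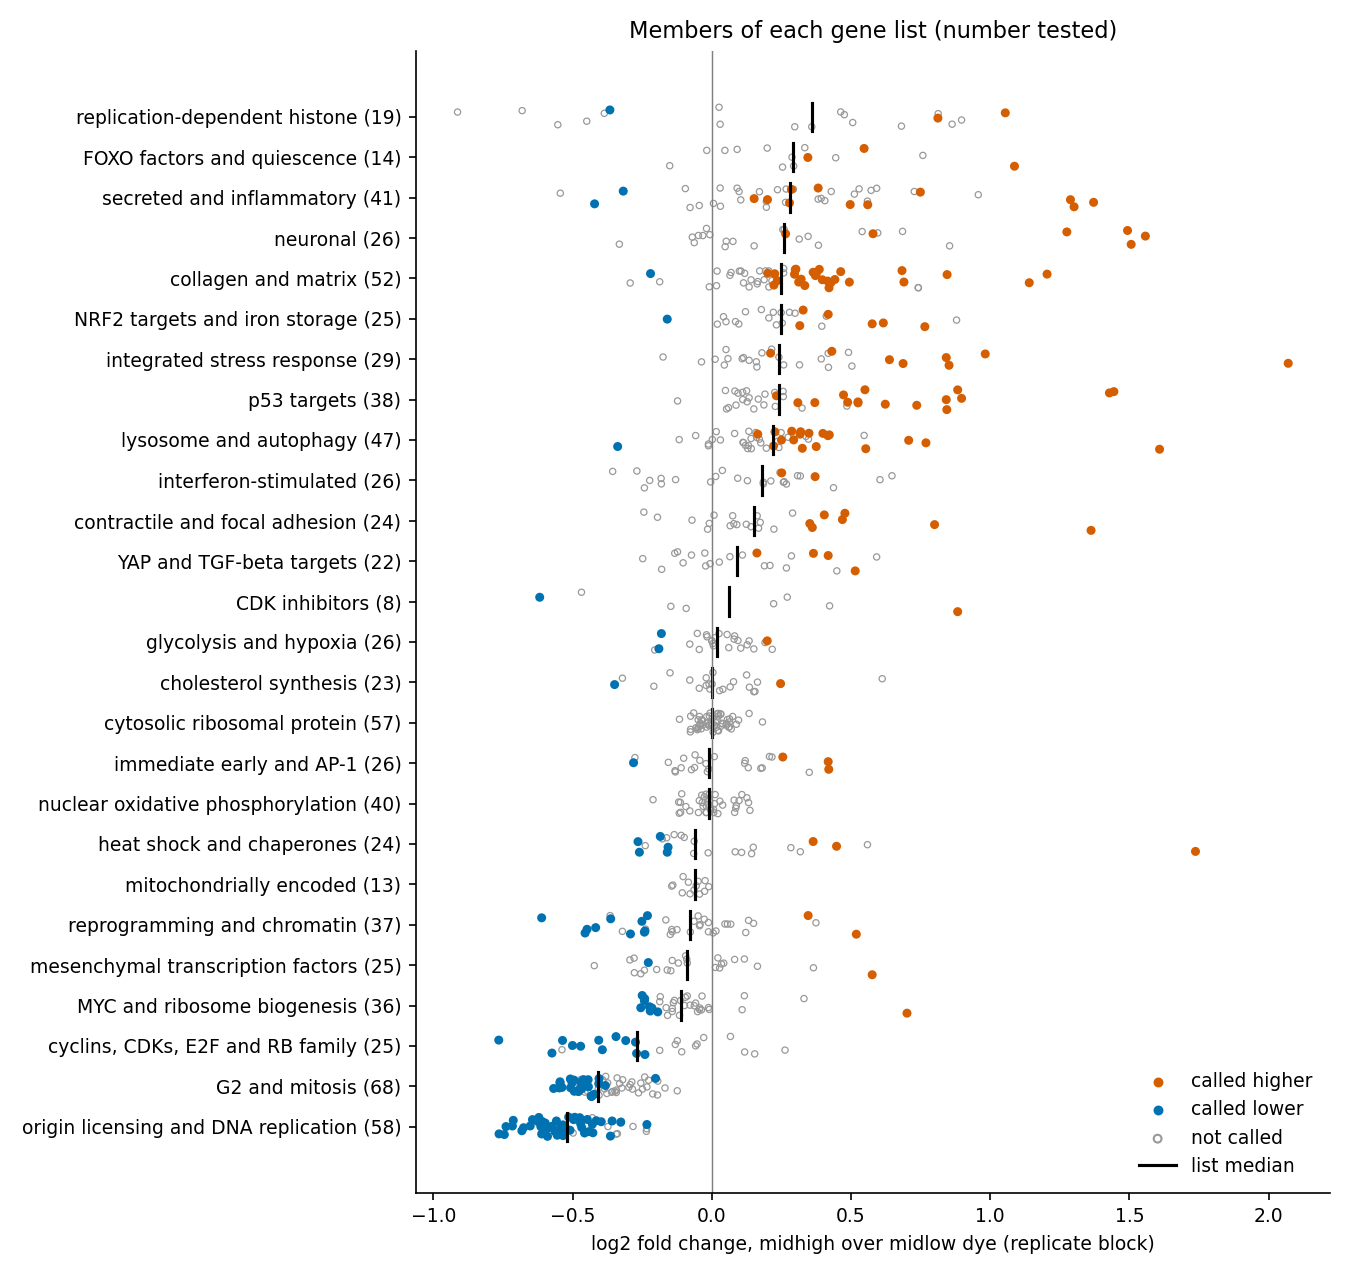
Log2 fold change of midhigh over midlow dye for every tested member of 26 gene lists, with filled points for genes called with the replicate block and a bar at each list median. Replication, mitosis and cyclin genes lie left of 0 at medians of -0.52, -0.41 and -0.27, and p53 target, stress, lysosomal and matrix lists lie right of it at 0.22 to 0.25.

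Of 14 FOXO factors and quiescence genes 3 rose and 0 fell, with a median of 0.29. DDIT4, an inhibitor of mTORC1, had 5.90, 1.59, 2.01 and 0.572 CPM in midhigh and 2.80, 0.539, 0.956 and 0.427 CPM in midlow libraries (log2 fold change 1.09, adjusted p = 0.0078 in edgeR). TOB1 (0.55) and CITED2 (0.34) were the others. FOXO1, FOXO3 and FOXO4 were not called, at 0.29, 0.05 and 0.33. The count of 3 was 1 without midhigh replicate 3, without midlow replicate 3 or without all of replicate 3, and 0 without all of replicate 1.

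In the integrated stress response, 8 of 29 genes rose and 0 fell, with a median of 0.24. NUPR1, a stress-induced nuclear protein, stood at 2.10, 0.529, 3.64 and 1.14 CPM in midhigh and 0.792, 0.196, 0.615 and 0.122 CPM in midlow libraries, where replicate 4 was under the floor of 3 counts. ATF3, a transcription factor of stress, was at 11.9, 4.41, 27.3 and 9.15 CPM in midhigh and 7.44, 2.50, 10.5 and 4.94 CPM in midlow libraries (log2 fold change 0.98, SE 0.18, adjusted p = 0.0035 in edgeR). CHAC1, which breaks down glutathione, had 16.5, 4.06, 10.7 and 4.13 CPM in midhigh and 7.86, 2.69, 5.60 and 2.75 CPM in midlow libraries. Levels of both differed widely between replicate numbers, and the midhigh library was higher in each pair. SESN2, shared with the p53 list, rose by 0.84, while ATF4 (0.04), DDIT3 (0.50) and ASNS (-0.17) were not called. The count of 8 was 4 without midhigh replicate 3, 5 without midlow replicate 1 and 2 without all of replicate 1. It was 14 without a filter on low counts, 14 with the 16 gated libraries and 19 with the 8 inner libraries.

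The CHAC1 window is shown because the gene is a known target of ATF4 and the window holds 1 C/EBP-ATF response element (CARE), in capitals on the opposite strand. It lies at chr15:40953221-40953520 (plus strand, GRCh38.p14, RefSeq).
CHAC1: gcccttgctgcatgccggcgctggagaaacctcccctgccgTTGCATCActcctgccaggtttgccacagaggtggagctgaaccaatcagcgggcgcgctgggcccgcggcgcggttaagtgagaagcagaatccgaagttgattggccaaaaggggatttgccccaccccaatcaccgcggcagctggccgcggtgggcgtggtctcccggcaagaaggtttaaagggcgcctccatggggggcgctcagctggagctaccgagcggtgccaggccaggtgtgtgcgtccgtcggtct
The letters TGATGNAA, read on both strands, were in 5 of 25 windows of the list (20%), against 3.67% of all windows. Of the called members with a window, 2 of 7 held a match, and the SESN2 window held none.

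Of 25 NRF2 targets and iron storage genes 6 rose and 1 fell, with a median of 0.25. The ferritin heavy chain FTH1 was at 195, 137, 212 and 104 CPM in midhigh and 112, 75.7, 113 and 76.4 CPM in midlow libraries (log2 fold change 0.77, SE 0.17, adjusted p = 0.0069 in edgeR). The light chain FTL was at 1926, 1190, 1999 and 1163 CPM in midhigh and 1163, 846, 1209 and 915 CPM in midlow libraries (log2 fold change 0.58). Reads of ferritin genes can be shared with their processed pseudogenes, so these levels are uncertain. ABHD4, a lipid hydrolase, rose by 0.62. TFRC, the transferrin receptor that brings iron in, fell by 0.16, and HMOX1 (0.88) and NFE2L2 (0.05) did not pass the test. The antioxidant response element letters TGACNNNGC were in 4 of 19 windows (21.1%), against 13.6% of all windows. Called members with a window held a match in 1 of 5 cases, and the windows of ABHD4 and FTL held none. The count of 6 rises was 3 without midhigh replicate 1, 2 without midhigh replicate 3, 2 without midlow replicate 1, 3 without midlow replicate 2, 0 without all of replicate 1 and 3 without all of replicate 2. It was 11 without a filter on low counts, 10 with the 16 gated libraries and 14 with the 8 inner libraries.

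Of 47 lysosomal and autophagy genes, 18 rose and 1 fell (GUSB, -0.34), with a median of 0.22. GPNMB (ENSG00000136235, chr7:23235967-23275108), a lysosomal glycoprotein known to rise with TFE and MITF factors, was at 10.1, 6.71, 13.5 and 4.96 CPM in midhigh and 3.11, 2.60, 3.28 and 2.44 CPM in midlow libraries. The gates did not overlap and the fold was 3.05 (log2 fold change 1.61, SE 0.24, adjusted p = 0.00098 in edgeR). The autophagy genes GABARAPL1 and SQSTM1 rose by 0.77 and 0.71, the sulfatase ARSA by 0.55, the protease CTSD by 0.42 and the membrane protein LAMP1 by 0.17 on the log2 scale. The CLEAR letters TCACGTG were in 8 of 31 windows (25.8%), against 3.82% of all windows. Among called members with a window, 5 of 13 held a match. The windows of GPNMB, GABARAPL1 and SQSTM1 held none. The count of 18 was 9 without midhigh replicate 3, 9 without midlow replicate 3, 11 without midlow replicate 1, 4 without all of replicate 1 and 10 without all of replicate 3.

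Collagen and matrix had the most rises of the 26 lists. Of its 52 members 26 rose, while 1 fell (NID1, a basement membrane linker, -0.22), with a median of 0.25. COL1A1 (ENSG00000108821, chr17:50183289-50201632), the main chain of type I collagen, was at 4491, 3623, 3447 and 3250 CPM in midhigh and 3596, 2778, 2631 and 2468 CPM in midlow libraries. Its 4 pair differences were close together, at 0.32 to 0.40 on the log2 scale (log2 fold change 0.37, SE 0.08, adjusted p = 0.0067 in edgeR). COL11A1, a chain of minor fibrillar collagen, had 89.8, 92.2, 353 and 166 CPM in midhigh and 35.6, 62.4, 104 and 88.8 CPM in midlow libraries. Midhigh replicate 3 stood above all others, and the pair differences ran from 0.56 to 1.76 (log2 fold change 1.14, SE 0.15, adjusted p = 0.0003). The collagen receptor subunit ITGA11 rose by 1.20, COL3A1 by 0.68 and LOX, which crosslinks collagen, by 0.43. FN1, fibronectin, averaged 15814 ± 1994 CPM in midhigh and 12486 ± 856 CPM in midlow cells (SD, n = 4 each), without overlap. The proteoglycans DCN and LUM, both at 0.74, were not called. The count of 26 was 10 without midhigh replicate 3, 16 without midlow replicate 3, 7 without all of replicate 1 and 15 without all of replicate 4.

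Among 41 secreted and inflammatory genes 11 rose and 2 fell, with a median of 0.28. IGFBP5, an IGF binding protein, was at 65.2, 48.8, 73.8 and 29.6 CPM in midhigh and 24.1, 16.5, 33.0 and 11.9 CPM in midlow libraries (log2 fold change 1.37, SE 0.16, adjusted p = 0.00015 in edgeR). SPP1, osteopontin, had 208, 86.9, 208 and 62.2 CPM in midhigh and 68.4, 36.0, 69.5 and 39.0 CPM in midlow libraries (2.46-fold higher, SE 0.19 on the log2 scale, adjusted p = 0.00091). In both genes the pairs moved together while 1 midhigh library lay within the midlow range. TGFB2 rose by 1.29 and IGFBP3 by 0.56. The chemokine CXCL12 and the collagenase MMP1 fell, by 0.42 and 0.32, and MMP3 (0.73) and PTGS2 (-0.10) were not called. The count of 11 was 6 without midhigh replicate 3, 7 without midhigh replicate 1, 7 without midlow replicate 1 and 5 without all of replicate 1, and it was 19 with the 8 inner libraries.

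Of the contractile genes, ACTA2 differed more between replicate numbers than between gates. ACTA2, smooth muscle actin, was at 13.6, 14.2, 104 and 72.8 CPM in midhigh and 7.76, 7.74, 52.2 and 50.1 CPM in midlow libraries. Replicates 3 and 4 were several times above replicates 1 and 2 in both gates, and within each pair the midhigh library was higher, by 0.54 to 0.99 on the log2 scale (log2 fold change 0.80, SE 0.12, adjusted p = 0.0011 in edgeR). Of 24 contractile and focal adhesion genes 7 rose and 0 fell, MYL9 by 0.47 and TAGLN by 0.35 among them, and 4 rose without all of replicate 1. Of 22 YAP and TGF-beta targets 4 rose and 0 fell, at a median of 0.09, and CCN1 (-0.12) and CCN2 (0.29) were not called. That count was 2 without midhigh replicate 2, 3 or 4, without midlow replicate 1 or 2 or without all of replicate 2, and 0 without all of replicate 1.

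**Figure D3:**
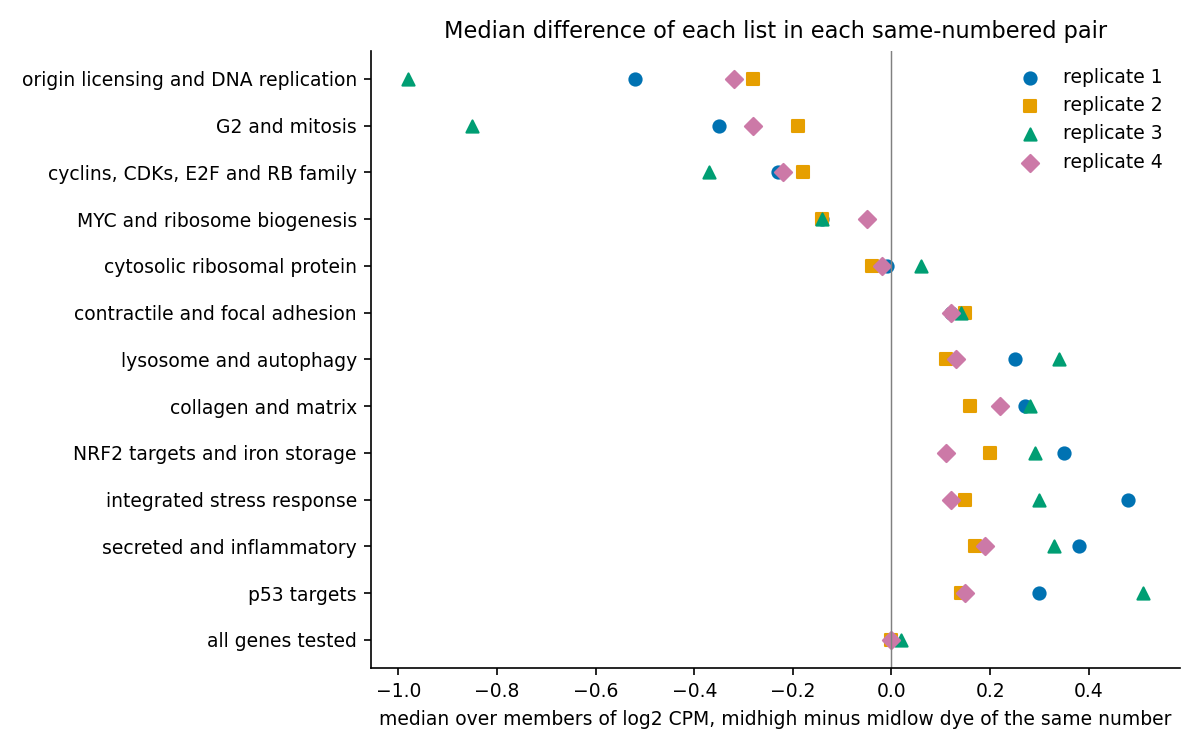
Median over the members of each list of the log2 CPM difference, midhigh minus midlow dye, in each same-numbered pair. Pair 3 is farthest from 0 for replication genes (-0.98), mitosis genes (-0.85) and p53 targets (0.51), pair 1 for stress response genes (0.48), and all genes tested stay near 0 in every pair.

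The other named rises, chosen by size, came from no single list. AKR1C1, a steroid reductase, had 23.7, 4.47, 8.48 and 1.14 CPM in midhigh and 6.38, 1.32, 2.25 and 0.488 CPM in midlow libraries, but reads can be shared with its near-identical AKR1C paralogs, so its level is uncertain. KYNU, an enzyme of tryptophan breakdown, was at 5.71, 3.06, 12.7 and 5.08 CPM in midhigh and 1.16, 0.392, 4.24 and 2.32 CPM in midlow libraries. ZNF469, a zinc finger gene linked to corneal collagen, was at 4.76, 2.41, 8.42 and 5.15 CPM in midhigh and 1.74, 0.539, 2.32 and 2.07 CPM in midlow libraries, with every midhigh library above every midlow library. Their log2 fold changes were 1.84, 1.77 and 1.64. The netrin receptor UNC5B (1.78), the kinesin family gene KIF26B (1.55), the membrane protein TMEM132B (1.49), the BMP family ligand GDF6 (1.43) and the EGF receptor ligand EPGN (1.38) completed the 12 rises with the largest changes. Among the falls, FAM111B (-0.71), GINS3 (-0.68) and the centromere gene CENPH (-0.68) belong to cell division, while SLC7A2, a transporter of cationic amino acids, was at 27.4, 30.9, 37.8 and 53.3 CPM in midhigh and 45.2, 38.7, 87.6 and 79.1 CPM in midlow libraries (log2 fold change -0.72, adjusted p = 0.0069 in edgeR). KLHL23 (-0.69) and FRMD3 (-0.67) also fell in all 4 pairs.

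Housekeeping lists moved little, while some growth and chaperone genes fell. The genes of cytosolic ribosomal proteins (57 tested), of the nuclear part of oxidative phosphorylation (40) and of the mitochondrial genome (13) gave 0 calls by edgeR and 0 by DESeq2, with 2, 0 and 0 at an unadjusted p under 0.05. Their medians were 0.00, -0.01 and -0.06, against 10.8% called and a median of 0.01 over all genes. The list of MYC and ribosome biogenesis had 36 members, of which 9 fell and 1 rose, with a median of -0.11. Over all genes tested 5.27% fell and 5.52% rose. Nucleolin (NCL, -0.24) and fibrillarin (FBL, -0.26) were among the falls, MXI1, an antagonist of MYC, rose by 0.70, and MYC itself stood at 67.6 to 73.6 CPM in midhigh and 67.0 to 78.0 CPM in midlow libraries. The count of 9 falls was 4 without midhigh replicate 1, 4 without midhigh replicate 2, 3 without midhigh replicate 3, 1 without midlow replicate 1 and 2 without midlow replicate 3. Without all of replicate 1, 2, 3 or 4 it was 1, 2, 3 and 5. LDHA and ENO1, glycolytic enzymes, fell by 0.19 and 0.18 while ALDOA rose by 0.20, among 26 glycolysis and hypoxia genes. These calls held in 5, 9 and 11 of 20 leave-outs of a library or a replicate number. MSMO1, of cholesterol synthesis, rose by 0.25. Of 24 heat shock and chaperone genes 5 fell and 3 rose, the cytosolic chaperonin subunits CCT2 and CCT5 among the falls and the small heat shock genes HSPB7 and HSPB8 among the rises. Either count fell to 0 without midhigh replicate 3. HSPB7 was under the floor of 3 counts in midlow replicates 2 and 4, at 0.098 and 0.061 CPM, and DESeq2 gave it no adjusted p. Its pair differences ran from 0.2 to 2.4 on the log2 scale, and it was called in 11 of 20 leave-outs. Interferon-stimulated genes (2 of 26 rose) and immediate early genes (3 of 26 rose, 1 fell) completed these lists.

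Chromatin genes leaned down. Of 37 reprogramming and chromatin genes 10 fell and 2 rose, with a median of -0.08. LMNB1, lamin B1, whose loss is known from senescent fibroblasts, was at 105, 127, 60.05 and 113 CPM in midhigh and 162, 162, 132 and 145 CPM in midlow libraries, without overlap (log2 fold change -0.61, SE 0.16, adjusted p = 0.02 in edgeR). The polycomb methyltransferase EZH2 fell by 0.45 and its partners SUZ12 and EED by 0.29 and 0.24. KDM1A, which encodes the histone demethylase LSD1, had 158, 153, 124 and 144 CPM in midhigh and 178, 193, 153 and 158 CPM in midlow libraries. Its gates overlapped and it was lower in all 4 pairs (log2 fold change -0.24, SE 0.07, adjusted p = 0.024), but it was called in only 11 of 20 leave-outs. The count of 10 falls was 2 without midhigh replicate 3, 5 without midhigh replicate 4, 3 without midlow replicate 1 and 3 without midlow replicate 3. It was 1, 6 and 4 without all of replicate 1, 2 or 3. DOT1L (-0.01) and KLF4 (0.07) were not called. TERT was at 1472, 783, 1753 and 722 CPM in midhigh and 1681, 648, 1094 and 440 CPM in midlow libraries, higher in midhigh in 3 of 4 pairs and not called (adjusted p = 0.19). Gene counts do not separate the inducible hTERT from the cell's own gene.

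Of 26 neuronal genes 6 rose and 0 fell, at a median of 0.26, while the fixed neuron markers summed to 4.45 to 12.7 CPM in midhigh and 4.45 to 8.34 CPM in midlow libraries. The adhesion gene NRCAM, the secretory gene SCG5 and VGF rose by 1.56, 1.27 and 1.51, and the count of 6 was 3 without midhigh replicate 3. VGF lay near the floor of 3 counts, at 0.183 to 0.343 CPM in midlow libraries, and DESeq2 gave it no adjusted p. It was called in 12 of 20 leave-outs, against 20 of 20 for NRCAM and SCG5. Of 25 mesenchymal transcription factors TCF21 rose (0.58) and ZEB1 fell (-0.23). In the histone list of 19 genes H2AC6 and H2BC21, which are known to give polyadenylated transcripts in non-dividing cells, rose by 0.81 and 1.05. Most replication-dependent histone RNAs have no poly(A) tail, so a poly(A) library holds few of them. In bulk RNA, fewer cells of a kind and less RNA in each cell cannot be told apart, for these lists and for the cell cycle lists alike.

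Pair 3 had the largest difference of the 4 pairs for 882 of the 1574 called genes (56%), against 302 for pair 1, 245 for pair 2 and 145 for pair 4. Median differences of the called genes that rose were 0.45, 0.36, 0.52 and 0.34 in pairs 1 to 4, and of those that fell -0.31, -0.26, -0.44 and -0.25. The genes were called on these same pairs, so the values describe and do not test them. The total of 1574 calls was 541 without midhigh replicate 3, 579 without midlow replicate 3, 783 without midlow replicate 1, 993 without midhigh replicate 4 and 1013 without midhigh replicate 1. It was 274 without all 5 libraries of replicate 1, 757 without those of replicate 3, 885 without those of replicate 4 and 1048 without those of replicate 2.

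Genes differed in how far they relied on a single library. In 20 leave-outs, 16 of 1 gated library each and 4 of all libraries with 1 number, 32 of the 99 called genes named by the rule were called every time. These were 26 of 63 that rose and 6 of 36 that fell. PAPPA2, GDF15, CDKN1A, BTG2, GPNMB, SPP1, IGFBP5, COL1A1, COL11A1 and ACTA2 were among the rises called in all 20, and CDCA7, GINS2, POLE2, SKP2 and FRMD3 were among the falls. ORC1 and MCM10 were called in 19, MCM2 and LMNB1 in 16, CCNB1 in 13, KIF20A in 12 and E2F2 in 9. Leaving out a library also removes most of what its pair adds to the contrast, so a lost call is not a changed direction.

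The outer gates gave a second contrast in other libraries with the same replicate numbers. High against low dye called 5433 of the 14592 genes (37.2%) by the same test, and 1469 genes were called in both contrasts in the same direction. These were 93.3% of the inner calls and 27% of the outer calls. No gene was called in opposite directions. The 8 high and low dye libraries are separate from the 8 inner ones but share the fit and the replicate numbers, so the overlap is not independent of what a number shares. Among the outer calls the ratio of the inner to the outer log2 fold change had a median of 0.52, with quartiles of 0.35 and 0.66. Across 14592 genes, which are not independent replicates, the 2 log2 fold changes correlated with Pearson's r of 0.72.

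If the 4 gates were equal steps, the inner difference would be the outer difference divided by 3. The contrast of the inner difference against the outer difference divided by 3 called 0 genes (0%) with the block, with 972 genes (6.66%) at an unadjusted p under 0.05 and a smallest adjusted p of 0.73 by edgeR. DESeq2 called 0, with 756 at an unadjusted p under 0.05. A missed threshold does not show that the steps were equal, and no dye values were used here to say how far apart the gates were. The replication list had a median of -0.23 for this contrast and the mitosis list -0.16.

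**Figure D4:**
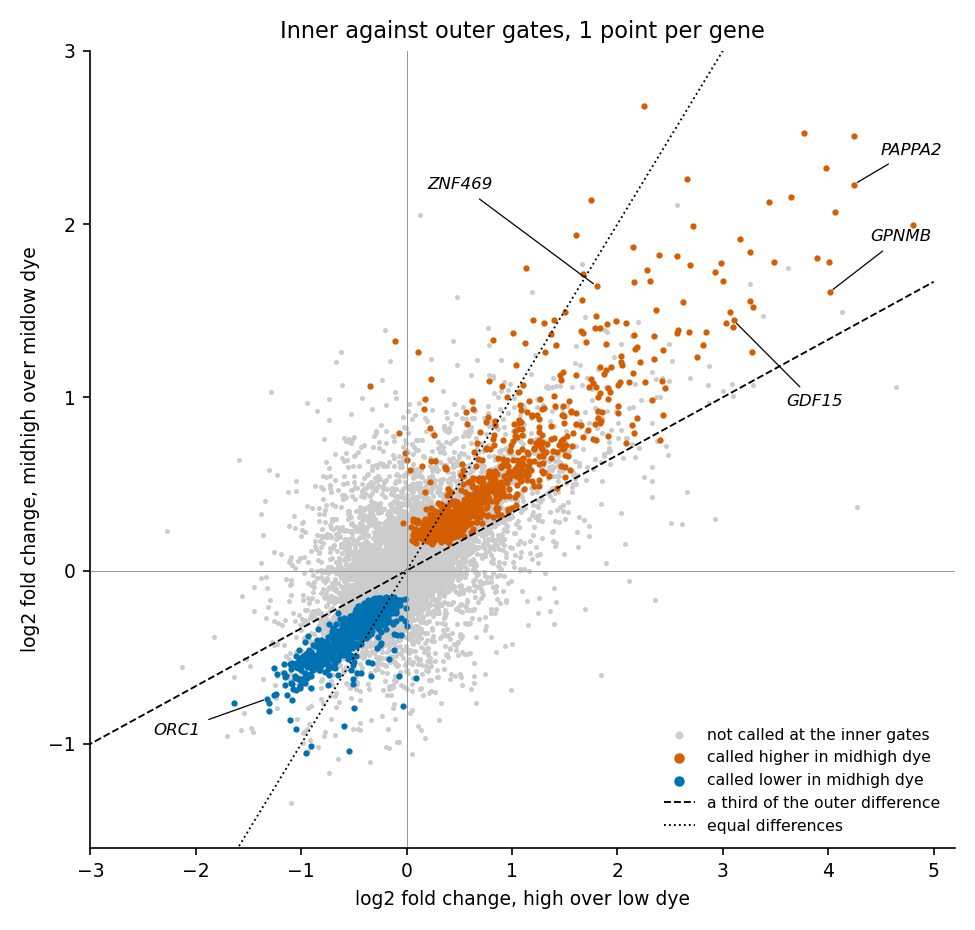
Log2 fold change of midhigh over midlow dye (vertical) against that of high over low dye (horizontal), 1 point for each of 14592 genes, with inner calls in colour. The dashed line marks the outer difference divided by 3 and the dotted line equal differences. Of the 1574 called genes 1321 lie between the lines, a share that selection on the inner difference favours.

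Single genes took different courses along the 4 gates. Going up the dye scale, GDF15 averaged 24.1, 41.0, 120 and 222 CPM in low, midlow, midhigh and high dye cells. GPNMB averaged 1.62, 2.86, 8.82 and 27.2 CPM in the same order, and both went on climbing above the midhigh gate. IGFBP5 averaged 8.76, 21.4, 54.3 and 49.6 CPM, and COL1A1 2594, 2868, 3703 and 3384 CPM, with no further rise of the mean above midhigh. ORC1 averaged 37.1, 29.99, 18.1 and 14.99 CPM and CDCA7 69.8, 54.2, 32.3 and 28.9 CPM, with their widest step between the inner gates. None of these genes was called in the contrast above. That contrast does not compare high with midhigh dye, so the course above the midhigh gate was not tested. Ungated cells lay between the inner gates for most called genes. Their mean was between the midhigh and midlow means for 1517 of the 1574 (96.4%), against 50.3% of all genes tested, a share that selection on a large gap favours.

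**Figure D5:**
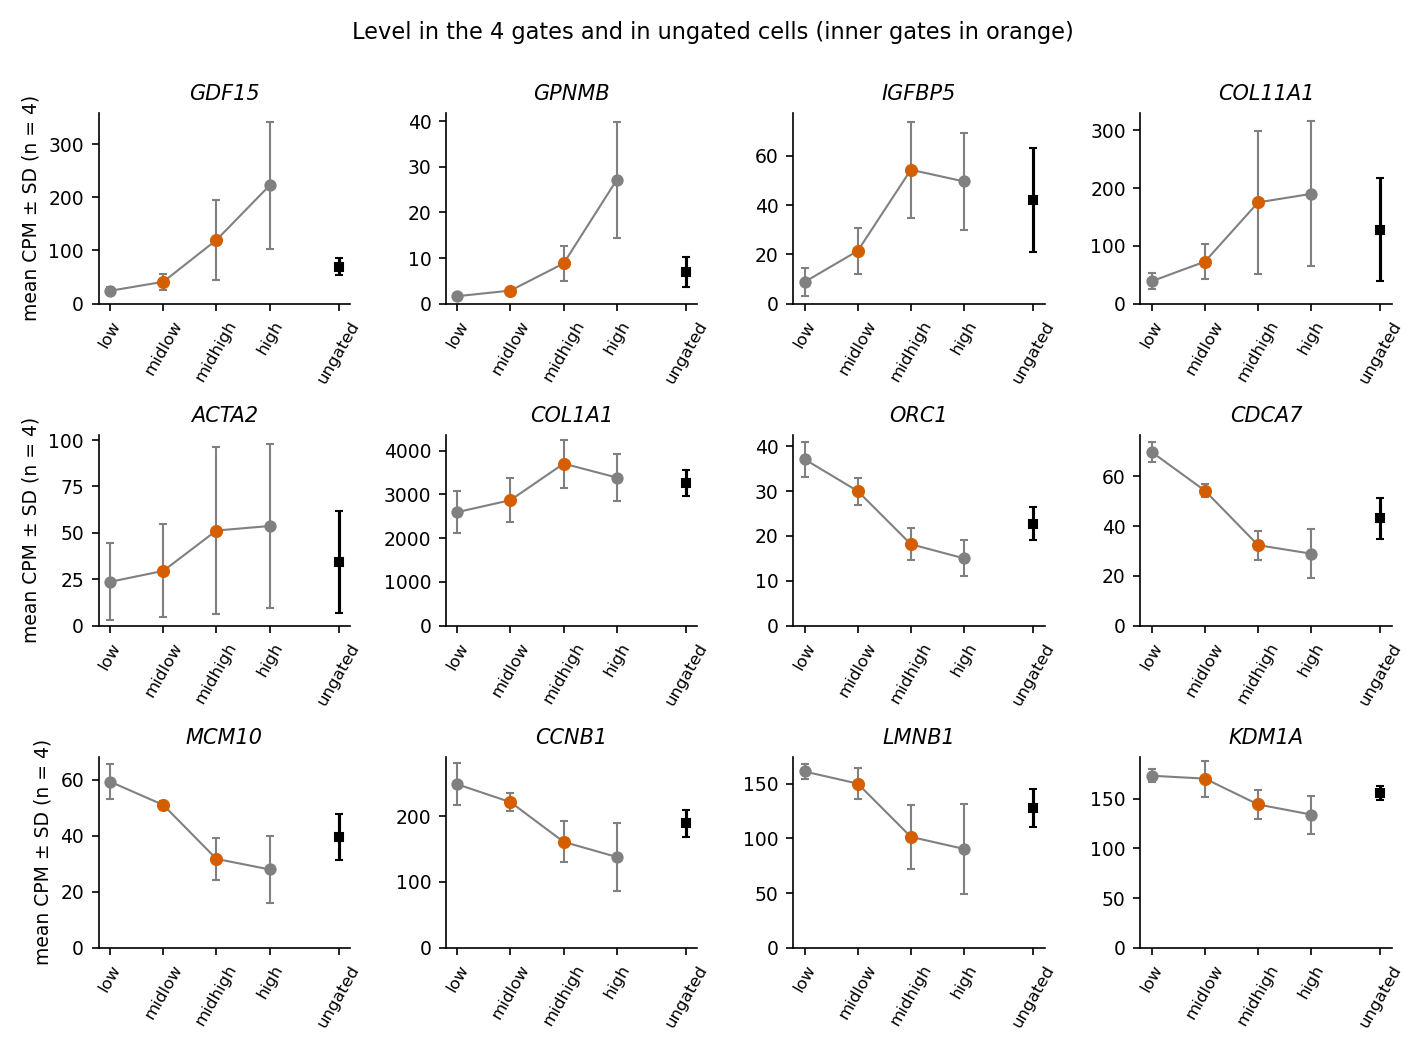
Mean CPM with SD (n = 4) in low, midlow, midhigh and high dye cells and, set apart at the right, in ungated cells, for 12 genes, with the inner gates in orange. GDF15 and GPNMB climb to the high gate, while ORC1, CDCA7 and MCM10 drop most between midlow and midhigh.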

How the data were processed

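Poly(A) RNA libraries of sorted hiF-T cells were compared from the deposited raw counts, 1 per Ensembl gene and library, which the authors had not normalised. STAR and HTSeq on hg38 (GRCh38) are the aligner, the counter and the build, per the submitters' processing notes, while versions, annotation release and strand setting are not given in the sources used here. Per the labels' protocols the NEBNext Ultra II kit was used, which does not mark strand, so a gene and its antisense partner cannot be told apart. HTSeq's closing totals stayed out of library sizes, and reads without a feature were 4.98% to 7.72% in midhigh and 5.36% to 6.32% in midlow libraries. Coordinates and biotypes of genes come from GENCODE release 29 (58039 of 58302 genes matched), which may not be the release used for counting. The series' long table was not used.

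The 20 sort libraries were fitted together in edgeR 4.0.16 (R 4.3.3) with gate and replicate number as terms, TMM factors, filterByExpr (minimum count 10, minimum total 15) and the quasi-likelihood F test, with 12 residual degrees of freedom. The threshold was 0.05 on the Benjamini-Hochberg adjusted p. SE is the size of the log2 fold change over the root of F. Pair differences are of log2 CPM with a prior count of 2. The steps were tested on simulated counts whose set differences were at least 2-fold. Most called differences here were smaller, so that run does not cover them. The block was used because the rule for this comparison names the replicate number as block. Same-number residuals correlated above 0.1 in 40 of 40 pairs of sort libraries (0.146 to 0.618), against 16 of 120 pairs with different numbers. Removing group means pushes different-number correlations down when same-number ones are up, so the lower share is not separate evidence for the block. The labels give a number for each biological replicate without saying what it shares. No libraries of 1 group were copies (lowest chi-square per degree of freedom 10.09 within the 2 gates). The p-values measure the spread that remains among libraries of 1 line after gate and replicate number are fitted. They do not measure the spread between replicate numbers, which the block takes out.

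The comparison and its 26 lists (874 symbols, 872 found, 823 tested) were chosen with earlier results of these data known. Genes were named by rule: the 12 largest rises and falls among called protein-coding genes with at least 5 CPM in the higher gate and 4 of 4 pairs in 1 direction, up to 4 called members of each list by size, and a fixed set. Other list members are named as examples after their values were seen. Promoters came from the RefSeq table (GRCh38.p14), and all windows means every full window in it, whether or not the gene was tested here. DESeq2 1.42.0, the fit without the block, other filters and scaling, fewer libraries and leave-outs were alternatives. Some items are not reported here.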

Additional observations from a re-analysis of the deposited data

Results flagged for a closer look

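Among 212 sets of 4 libraries of the genes named by rule (midhigh or midlow dye), 9 held a library that stood apart by Dixon's ratio, the gap to the nearest library over the whole range, above its 95% critical value. Chance flags about 1 in 20 such sets. In midhigh dye, replicate 3 was highest for MYLK (105 CPM, ratio 0.857) and HSPB7 (3.02 CPM, 0.831), replicate 1 was highest for ANGPTL4 (46.5 CPM, 0.892) and replicate 4 was highest for NCL (1397 CPM, 0.874). In midlow dye, replicate 1 was highest for TGFBI (1723 CPM, 0.956) and SPATA18 (7.97 CPM, 0.892). Also in midlow dye, replicate 2 was lowest for E2F1 (45.9 CPM, 0.875) and FRMD3 (58.9 CPM, 0.897), and replicate 4 was lowest for MSMO1 (49.8 CPM, 0.914).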

How the results depend on the processing

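The replicate block decided the count: 1574 genes were called with it and 0 without it. DESeq2 called 1663, DESeq2 size factors in edgeR gave 1566, a minimum count of 50 gave 1625, no filter on low counts 1856, the 16 gated libraries 1840 and the 8 inner libraries 2254. Leaving out a library or a replicate number gave 274 to 1795 calls. The contrast of the inner difference against the outer one divided by 3 gave 39 calls without a filter on low counts and 0 otherwise. Signs turned only for genes that were not called: with libraries left out, the log2 fold changes ran from -0.071 to 0.172 for KLF4, from -0.093 to 0.08 for DOT1L and from -0.05 to 0.028 for MYC.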
